A study of Mus musculus with 4 samples.

Results

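Pre-mRNA splicing genes were described in RAW G9, a reporter clone derived from the mouse macrophage cell line RAW264.7, with and without lipopolysaccharide (LPS), a bacterial product sensed by the receptor TLR4. Members were the genes of the array probes whose annotated symbol begins with Sf3a, Sf3b, Snrp, Lsm and a digit, Prpf, Hnrn, Hnrp, Srsf or Sfrs. This gave 74 genes with 156 probes, among 20289 genes with a named probe. The LPS group held 2 arrays of cells exposed to LPS at 10 ng/ml for a period of 4 h. The untreated group held 2 arrays of cells given no LPS, which the labels place at 0 h and the study's methods at the same 4 h in medium. The arrays were Illumina MouseWG-6 bead arrays, and the methods call the 2 per condition biological duplicates. All 4 arrays came from 1 clone that carries lentiviral reporters, GFP-RelA behind the Rela promoter and mCherry behind the Tnf promoter, so they describe that clone of a transformed line and not primary macrophages.

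Splicing removes introns from pre-mRNA. The spliceosome that does this is built on small nuclear ribonucleoprotein particles (snRNPs), each a short RNA on a ring of Sm or LSm proteins with further proteins of its own. The SF3 complex belongs to the U2 snRNP and grips the branch point of the intron, and many PRPF proteins belong to the U4/U6.U5 particle or help activate the spliceosome. SR proteins mostly favour the use of an exon by binding enhancers in it, and heterogeneous nuclear ribonucleoproteins (hnRNPs) coat pre-mRNA and often oppose the use of an exon, so the balance of both families bears on alternative splicing, which also acts on many transcripts of activated macrophages.

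Log2 values below are intensities after background correction and quantile normalization, and a change is LPS minus untreated. Between 16380 and 17892 of 45281 probes were detected per array, that is, had a detection p under 0.1. The LPS arrays correlated at 0.989 and the untreated arrays at 0.997 over the 17211 probes detected on both arrays of a condition. The brightest probes stood higher above the array median in untreated cells: the 95th percentile was 7.47 and 6.59 times the median signal on the LPS arrays and 12.01 and 10.1 times on the untreated arrays. Both untreated arrays lay on slide 3, and LPS arrays A and B lay on slides 1 and 2, so an effect of LPS and one of the slide cannot be told apart. All 9 macrophage markers with a probe were detected, as was 1 of 17 markers of T cells, B cells, fibroblasts and neutrophils, Elane. The LPS response was large in these arrays, with the cytokine gene Tnf higher by 4.46 and the chemokine gene Cxcl10 by 7.01.

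Most splicing genes were expressed in both conditions. A gene counted as detected when 1 of its probes was detected on both arrays of a condition. By this rule 64 of the 74 genes were detected in LPS cells and 66 in untreated cells, and the 64 were detected in both. The 8 genes detected in neither were Sf3b1, Snrpe, Snrnp70, Snrpb2, Lsm11, Srsf12, Hnrnpa3 and Hnrnpr. Their 13 probes had signals between 97.4 and 132.1, near the array medians of 104 to 118. Several of them encode core proteins, such as the branch point subunit Sf3b1 and the Sm protein Snrpe. For Snrnp70, the U1 snRNP protein that recruits the spliceosome to the start of an intron, a probe annotated under another symbol, and so outside the members, was bright on all 4 arrays (10.17 and 10.06 with LPS, 10.35 and 10.01 untreated). A member without signal was therefore not read as a gene without expression.

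With quantile normalization, few splicing genes passed the threshold beside the breadth of the LPS response. Of the 66 members tested, 3 were higher with LPS (4.55%) and 2 were lower (3.03%), at an adjusted p under 0.05 from limma with Benjamini-Hochberg adjustment over all 17211 tested probes. Over all 9727 genes tested, 13.7% were higher and 21.4% were lower. The higher members were Prpf38a, Lsm10 and Hnrnpul1, and the lower members were Hnrnpl and Hnrnph1. The median size of a change, without its sign, was 0.19 over the members and 0.33 over all genes. With quantile normalization no member, taken by its brightest probe, changed by more than 1 on the log2 scale, which is a factor of 2, whereas 1070 of all genes did (11.0%), and 3 members passed a change of 0.5 (4.55%) against 3193 of all genes (32.8%). The precision was alike: the median standard error was 0.14 in both sets. The intensity was not: the median log2 value was 9.96 over the members and 7.19 over all genes, and the comparison was not matched for it. The LPS arrays both lay above both untreated arrays for 11 members (16.7%) and both below for 24 (36.4%), while all genes gave 28.2% above and 42.5% below. For 62 of 66 members the 95% interval of the change lay within 1 in either direction, and for 24 it lay within 0.5. No test compared the members with other genes as a set.

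**Figure D1:**
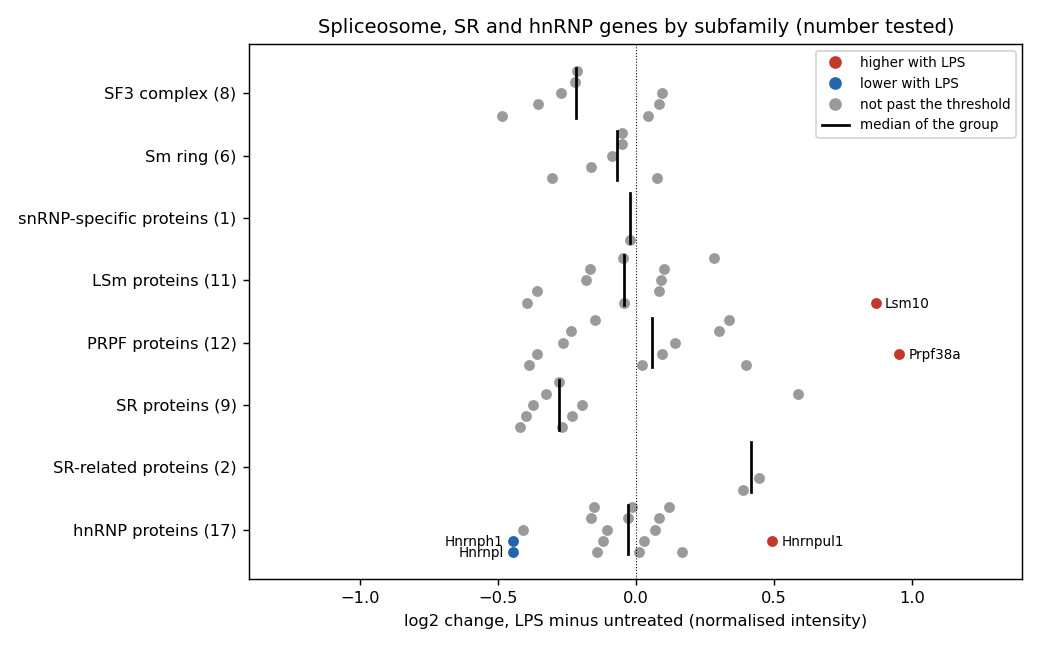
Each point is 1 tested member gene, placed by its log2 change in normalised intensity, LPS minus untreated, and grouped by subfamily with the number tested in brackets; red points passed the threshold as higher, blue points as lower, and black bars mark subfamily medians. Prpf38a at 0.95 and Lsm10 at 0.87 stand apart on the right, and no member reaches a change of 1 by its brightest probe.

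These counts and their order against all genes depend on how the arrays were scaled. The median change was -0.07 over the members and -0.09 over all genes with quantile normalization. Scaling each array to its median over all probes moved these medians to -0.68 and -0.70, and then 0 members were higher and 47 lower (71.2%) by limma, with 0 higher at an unadjusted p under 0.05, while 4.96% of all genes were higher and 62.7% lower. The members were thus called lower more often than all genes with that scaling and less often with quantile normalization, and neither difference was tested. Scaling to the median over the tested probes gave medians of 0.12 and 0.10, with 10 members higher (15.2%) and 2 lower (3.03%), against 31.5% and 19.3% of all genes. This scaling differs from the previous one by the same constant for every gene. Its 2 lower members were Hnrnpll and Prpf4, and neither Hnrnpl nor Hnrnph1 kept its call. Over all 16 settings run, the median member lay between 0.07 below the median gene (no detection filter) and 0.08 above it (detection p under 0.01). The counts also moved with single arrays, to 10 higher and 14 lower without LPS array B, 4 and 9 without LPS array A, 1 and 0 without untreated array A, and 2 and 0 without untreated array B.

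The promoters of the 2 genes with the largest changes, Prpf38a and Lsm10, and of Hnrnpl, the lower gene with the smallest p, are shown here. The array measured transcripts, and the changes were not tied to these start sites. They come from RefSeq on build GRCm38.p6, cover 250 bases before to 50 bases after a start site, and read 5′ to 3′ on the strand of the gene. Capitals mark the CCAAT box, ATTGG or its complement, the only motif of 7 searched that occurred in them. The start of the Prpf38a window is the end of the annotated gene span, that of Lsm10 lies 91 bases inside the span and that of Hnrnpl 2344 bases inside it.
Prpf38a, chr4:108579287-108579586, minus strand: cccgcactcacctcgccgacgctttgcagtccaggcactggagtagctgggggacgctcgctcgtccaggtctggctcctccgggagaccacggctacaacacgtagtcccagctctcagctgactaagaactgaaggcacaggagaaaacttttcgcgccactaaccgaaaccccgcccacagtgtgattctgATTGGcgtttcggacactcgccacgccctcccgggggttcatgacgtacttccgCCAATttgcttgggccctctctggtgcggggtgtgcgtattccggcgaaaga
Lsm10, chr4:126096403-126096702, plus strand: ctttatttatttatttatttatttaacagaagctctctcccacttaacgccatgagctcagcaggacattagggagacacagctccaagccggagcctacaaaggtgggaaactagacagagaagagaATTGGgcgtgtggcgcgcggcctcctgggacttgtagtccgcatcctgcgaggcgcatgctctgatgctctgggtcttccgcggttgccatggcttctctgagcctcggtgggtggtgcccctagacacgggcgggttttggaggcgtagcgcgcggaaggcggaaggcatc
Hnrnpl, chr7:28810640-28810939, plus strand: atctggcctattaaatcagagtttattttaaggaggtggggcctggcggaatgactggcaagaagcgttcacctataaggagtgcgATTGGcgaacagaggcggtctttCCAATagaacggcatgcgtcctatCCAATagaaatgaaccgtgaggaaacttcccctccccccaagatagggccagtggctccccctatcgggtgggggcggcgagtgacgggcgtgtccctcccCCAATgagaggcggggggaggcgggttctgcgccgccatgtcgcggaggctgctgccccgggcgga
The CCAAT box occurred in 37.4% of all 32851 promoters and in 40 of the 84 promoters of 65 members (47.6%). The ETS motif CCGGAAG, searched on both strands as were all motifs, occurred in 26 member promoters (31.0%), of 20 genes, and in 8.86% of all promoters. Of the 18 tested genes among those 20, limma called 0 higher and 0 lower (3 and 3 at an unadjusted p under 0.05), and their median change was -0.10, against -0.05 in the 39 other tested members with a promoter. The κB motif, which the NF-κB factors activated by LPS recognise, occurred in the promoters of 3 members, Prpf6, Prpf40b and Hnrnpr (3.57% of member promoters, 4.51% of all). Changes of Prpf6 and Prpf40b were 0.30 and 0.34 and neither passed the threshold (adjusted p = 0.113 and 0.165 from limma). The cyclic AMP response element TGACGTCA occurred in 3.57% of member promoters and 1.79% of all. The TATA box TATAAA occurred in 7.14% and 13.6%, the YY1 core AAGATGGC in 3.57% and 2.75%, and the NRF1 core CGCATGCG in 5.95% and 1.87%. These motifs were chosen with the gene changes known, and a match describes letters and not binding.

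Prpf38a showed the largest rise of any member. It encodes a protein that joins the spliceosome just before activation and is needed for that step. Its brightest probe read 10.33 and 10.63 in LPS cells, against 9.52 and 9.54 in untreated cells. Both LPS arrays lay well above both untreated arrays, with a gap far wider than that between duplicates. The change was 0.95 (SE 0.15, adjusted p = 0.00315 from limma), or 1.94-fold, with a 95% interval of 0.60 to 1.30. All 4 of its probes passed the threshold in the same direction, with changes of 0.77, 0.95, 1.01 and 1.33, and Prpf38a was the only member with more than 1 tested probe of which this was true. The probe at 0.77 read 5.21 and 5.24 with LPS against 4.49 and 4.42 untreated, and was detected on 0 untreated arrays. That probe thus entered the test through the LPS arrays alone. The raw signals of the brightest probe, 1084 and 1195 with LPS against 1162 and 953 untreated, overlapped before normalization. With median scaling the change was 0.24 against a median gene of -0.70, so the change relative to the median gene was 0.95 there and 1.04 with quantile normalization. The call held with the slide as a random block (adjusted p = 0.0179).

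Lsm10 rose almost as much. Its product is no part of the spliceosome proper: with Lsm11 it replaces 2 Sm proteins in the ring of the U7 snRNP, which trims the 3′ ends of histone transcripts. Its probe read 9.08 and 9.23 in LPS cells and 8.20 and 8.38 in untreated cells, so the conditions did not overlap. The change was 0.87 (SE 0.14, adjusted p = 0.00381 from limma), or 1.83-fold. The partner Lsm11 was not detected, so the pair cannot be compared. The Lsm10 change was 0.01 with median scaling, which is 0.71 above the median gene, and missed the threshold without untreated array A (0.79). With the slide as a random block it kept an adjusted p of 0.0331.

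The other LSm proteins showed no call with quantile normalization, whereas 10 of the 11 LSm proteins were lower with median scaling (62.7% of all genes). With quantile normalization 1 of 11 was higher and 0 lower by limma, beside 13.7% and 21.4% of all genes. At an unadjusted p under 0.05 the counts were 1 and 1. Lsm2 to Lsm8 form the ring around U6 snRNA, and Lsm1 replaces Lsm8 in the cytoplasmic ring that starts mRNA decay. Among the ring proteins, Lsm2 read 10.50 and 10.42 with LPS against 10.95 and 10.76 untreated. Its arrays did not overlap, but the change of -0.39 missed the threshold (adjusted p = 0.0658 from limma). Lsm3 was at -0.36, Lsm8 at -0.18, Lsm4 at -0.17, Lsm5 at -0.04 and Lsm6 at 0.10. Dimmer probes, all without a call, were at 0.13 for Lsm2 and at -0.07 and -0.37 for Lsm6, so the sign differed between probes in both genes. The ring-specific pair, Lsm1 at 0.08 and Lsm8, had intervals of -0.26 to 0.42 and -0.54 to 0.18. Lsm14a and Lsm14b, proteins of cytoplasmic P-bodies, were at 0.09 and -0.05, and Lsm12 at 0.28.

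The Sm ring was bright, and none of its genes was called with quantile normalization. Sm proteins sit on every spliceosomal snRNA but U6, and 6 of their 7 genes were tested. Snrpd2 read 12.21 and 12.63 with LPS and 12.47 and 12.47 untreated. Snrpd1 read 12.39 and 12.31 with LPS and 12.20 and 12.35 untreated. Snrpg read 11.97 and 11.97 with LPS and 12.08 and 12.19 untreated. Snrpd1 and Snrpd2 overlapped between conditions, and Snrpg did not. The largest shift of the ring was that of Snrpb at -0.31 (adjusted p = 0.142 from limma), the smallest those of Snrpd2 and Snrpd3 at -0.05, and 0 of 6 passed the threshold, with 0 also at an unadjusted p under 0.05. The 95% interval lay within 0.5 in either direction for 5 of 6. Scaling moved the ring with the other genes: the median of its changes was -0.07 here, -0.56 with median scaling, where 4 of 6 were lower, and 0.24 with scaling to the median over the tested probes, where 1 was higher, Snrpd1 at 0.45 (adjusted p = 0.0355 from limma). Snrpa, the U1 protein that binds a loop of the snRNA, was at -0.02 (interval -0.34 to 0.30).

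No gene of the SF3 complex was called by its brightest probe with quantile normalization (6 of 8 were lower with median scaling), and this subfamily had the widest median gap between the LPS arrays. Sf3a1 encodes a subunit that holds SF3a to U2 snRNA, and it read 10.21 and 9.41 with LPS against 10.27 and 10.32 untreated. LPS array A lay close to the untreated arrays and LPS array B far below them, so the change of -0.48 had an SE of 0.25 and an adjusted p of 0.171 from limma. Sf3b4, which contacts the intron upstream of the branch point, read 11.84 and 11.12 with LPS and 11.46 and 11.33 untreated. A dimmer probe of Sf3b4 was higher with LPS by 0.50 (adjusted p = 0.0256 from limma), another was at 0.42 (adjusted p = 0.0529) and the brightest at 0.08. The called probe was at -0.06 with median scaling, and it missed the threshold with no background correction (adjusted p = 0.0894) and with the slide as a random block (adjusted p = 0.167). Sf3a3 was at -0.35, Sf3b3 at -0.27, Sf3b5 at -0.22, Sf3b2 at -0.21, Sf3b6 at 0.05 and Sf3a2 at 0.09. Over the 8 tested genes the median gap between the LPS arrays was 0.49, against 0.19 over all members. By limma 0 were higher and 0 lower, and at an unadjusted p under 0.05 0 were higher and 1 lower, Sf3a3.

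With quantile normalization PRPF genes other than Prpf38a had changes of both signs. Of 12 tested, 1 was higher and 0 lower by limma, beside 13.7% and 21.4% of all genes, and 3 and 2 at an unadjusted p under 0.05. With median scaling 0 were higher and 8 lower (66.7%), beside 4.96% and 62.7% of all genes. Scaling to the median over the tested probes gave 4 higher (33.3%) and 1 lower (8.33%), beside 31.5% and 19.3% of all genes. Prpf4b, a kinase of the tri-snRNP, read 5.35 and 5.23 with LPS against 4.85 and 4.94 untreated, a change of 0.40 that just missed the threshold (adjusted p = 0.0566). Its probe is dim, with raw signals of 120 and 116 with LPS against 132 and 128 untreated. The Prpf4b change was 0.04 with median scaling. Prpf4, a U4/U6 protein, read 7.70 and 7.70 with LPS against 8.05 and 8.06 untreated, a change of -0.36 that missed it too (adjusted p = 0.0698). The conditions did not overlap for either gene, but a second Prpf4 probe had a change of the other sign, as the plot by probe shows. Prpf19, a ubiquitin ligase needed for activation, was at -0.39 (adjusted p = 0.0832 from limma). Among proteins of the U4/U6.U5 particle, Prpf8, the protein at the heart of the active site, was at 0.02, Prpf3 at 0.14, Prpf6 at 0.30 and Prpf31 at -0.26. Prpf38b, a relative of Prpf38a, was at 0.10 (interval -0.37 to 0.56). Prpf39, a U1-associated protein, was detected on both untreated arrays and on 0 of 2 LPS arrays. It read 4.57 and 4.50 with LPS against 4.95 and 4.58 untreated, at the edge of detection, a change of -0.24 (adjusted p = 0.301 from limma). With scaling to the median over the tested probes its change was 0.44 (adjusted p = 0.0427), so its direction turned with the scaling.

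By their brightest probes SR proteins had mostly negative changes without a call. Of 9 tested, 8 had a negative change by that probe, where 57.9% of all genes had one. The LPS arrays lay below both untreated arrays for 6 and above for 0, where the shares over all genes were 42.5% and 28.2%, and the median change was -0.28. Limma called 0 higher and 0 lower, and at an unadjusted p under 0.05 it gave 0 higher and 2 lower, Srsf5 and Srsf9. With scaling to the median over the tested probes 6 of 9 were negative (43.9% of all genes), and with median scaling over all probes 9 of 9 (86.4% of all genes), 8 of them past the threshold. Srsf5 read 11.03 and 11.20 with LPS against 11.63 and 11.45 untreated (change -0.42, adjusted p = 0.0604). Srsf9 read 12.20 and 12.01 with LPS against 12.50 and 12.45 untreated (change -0.37, adjusted p = 0.0762). The conditions did not overlap for either gene. Both genes passed as lower with no background correction and with a larger offset, and the subfamily then had 2 lower and 0 higher. Without LPS array B it had 1 higher and 4 lower, and without LPS array A 0 and 3. Srsf1, the founding member of the family, was at -0.23, Srsf2 at -0.19, Srsf3, which also couples splicing to mRNA export, at -0.40, Srsf4 at -0.28, Srsf6 at -0.32 and Srsf10, a splicing repressor when dephosphorylated, at -0.27. Dimmer probes, all without a call, were at 0.19 and 0.35 for Srsf2 and at 0.30 and -0.21 for Srsf10. Those of Srsf1, Srsf3 and Srsf5 were at -0.20, -0.48 and -0.27. With the mean of each gene's tested probes 7 of 9 were negative (57.4% of all genes).

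Srsf11 was the exception among the brightest probes, and its rise rested on 1 array. Its brightest probe read 9.30 on LPS array A and 8.12 on LPS array B, against 8.28 and 7.98 in untreated cells. LPS array A stood apart, and LPS array B lay among the untreated arrays. A second probe repeated this, with 9.35 and 7.98 in LPS cells against 8.21 and 7.88 in untreated cells. The remaining probe did not, with 7.82 and 7.99 in LPS cells against 7.82 and 7.99 in untreated cells. The gap of 1.18 between the LPS arrays was the widest of any member. Gaps over 0.5 between the LPS arrays occurred in 11 of 66 members (16.7%) and in 11.6% of all genes, and in 0 members between the untreated arrays, which share a slide. The SR-related pair Scaf11 and Clasrp, which carry arginine-serine stretches but are not core SR proteins, had higher values with LPS. Scaf11 read 8.88 and 8.37 with LPS against 8.23 and 8.13 untreated, and Clasrp 8.05 and 7.72 with LPS against 7.54 and 7.46 untreated. Both had LPS arrays above untreated arrays and missed the threshold (changes 0.45 and 0.39, adjusted p = 0.108 and 0.0949 from limma), and with median scaling their changes were -0.43 and -0.49.

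**Figure D2:**
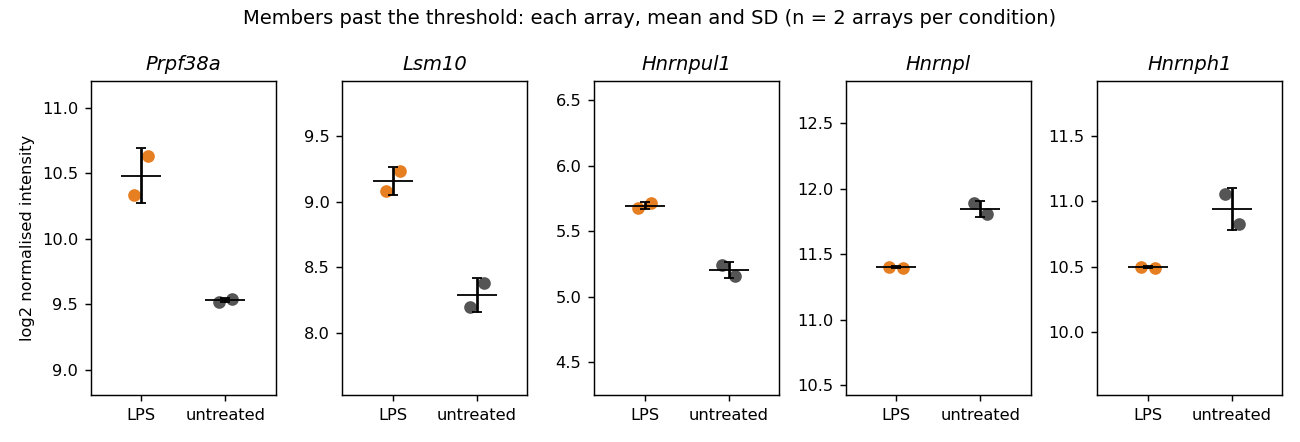
Log2 normalised intensity of the brightest probe of the 5 members past the threshold, with LPS at the left and untreated at the right of each panel; points are single arrays, and bars show the mean and SD of 2 arrays. Each panel spans the same number of log2 units around its own mean. The conditions do not overlap in any panel, and the gap is widest for Prpf38a (10.33 and 10.63 with LPS, 9.52 and 9.54 untreated).

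Among hnRNP genes 1 was higher (5.88%) and 2 were lower (11.8%) of 17 tested, beside 13.7% and 21.4% of all genes. Hnrnpl binds CA-rich stretches and acts in alternative splicing in lymphocytes and other cells. It read 11.41 and 11.40 in LPS cells, against 11.89 and 11.80 in untreated cells, a change of -0.45 (SE 0.13, adjusted p = 0.0355 from limma). Hnrnph1, which binds runs of G, read 10.50 and 10.49 with LPS against 11.06 and 10.83 untreated, a change of -0.45 (SE 0.14, adjusted p = 0.0471). Duplicates of both genes were closer to each other than to the other condition. Raw signals differed more, at 2301 and 2087 with LPS against 5063 and 4014 untreated for Hnrnpl. Relative to the median gene the change of Hnrnpl was -0.36 with quantile normalization and -0.26 with median scaling. The near relative Hnrnpll was at -0.41 by its brightest probe (adjusted p = 0.0556 from limma), and its other tested probe was at 0.06 without a call. With scaling to the median over the tested probes Hnrnpll passed as lower (-0.43). Hnrnpl (-0.16, adjusted p = 0.425 from limma) and Hnrnph1 (-0.30, adjusted p = 0.148) then missed the threshold.

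Hnrnpul1, an hnRNP U-like protein with roles in the DNA damage response, was the 1 higher hnRNP gene and the least firm call. Its probe read 5.68 and 5.71 with LPS against 5.24 and 5.16 untreated, a change of 0.49 (SE 0.13, adjusted p = 0.025 from limma). The probe is dim, with raw signals of 127 and 124 against 147 and 134, which were lower with LPS before normalization. The change was -0.06 with median scaling, and the other 3 tested probes gave -0.25, 0.26 and 0.35 with no call. Hnrnpul1, Hnrnpl and Hnrnph1 all missed the threshold with the slide as a random block (adjusted p = 0.176, 0.224 and 0.273) and when either untreated array was left out.

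The other 14 hnRNP genes, several of them bright, were not called by their brightest probe with quantile normalization. Hnrnpab was at 0.03, Hnrnpc, which binds runs of U, at -0.14, Hnrnpm at 0.01, Hnrnpa2b1 at -0.01, Hnrnpa1, a classic silencer of exons, at 0.12 and Hnrnpk, which binds runs of C, at 0.08. The brightest of these, Hnrnpab, read 13.82 and 13.68 with LPS and 13.77 and 13.68 untreated. Intervals lay within 0.5 in either direction for 8 of the 17 hnRNP genes and within 1 for all 17. The changes depended on the scaling. With scaling to the median over the tested probes Hnrnpab was higher by 0.63 (adjusted p = 0.00544 from limma), and with median scaling Hnrnpa2b1 was lower by 0.56 (adjusted p = 0.027) and Hnrnpc was at -0.42 (adjusted p = 0.0642). Hnrnpd, known for binding AU-rich elements of cytokine transcripts, was dim and at 0.17 (5.49 and 5.17 with LPS, 5.26 and 5.07 untreated). Hnrnph2 was detected on 1 of 2 LPS arrays and both untreated arrays, at 5.01 and 4.56 with LPS against 4.99 and 4.78 untreated, with overlap. Its change was -0.10 (adjusted p = 0.698 from limma), and 0.49 (adjusted p = 0.0222) with scaling to the median over the tested probes.

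Probes of 1 gene often disagreed. Among 35 members with 2 or more tested probes the sign of the change differed between probes in 18. Of the 125 member probes tested 9 were higher (7.2%) and 5 lower (4%) by limma, where 13.55% and 19.02% of all tested probes were. Hnrnpdl, an hnRNP D-like regulator whose own transcript is alternatively spliced, was the only member with probes called in opposite directions, and the only one with a spread over 1, with quantile normalization. One probe read 8.43 and 8.36 in LPS cells, against 7.85 and 7.78 in untreated cells (change 0.58, adjusted p = 0.014 from limma). Another read 8.11 and 8.15 in LPS cells, against 8.64 and 8.78 in untreated cells (change -0.58, adjusted p = 0.0149). Neither probe overlapped between conditions. The first minus the second, taken within each array, was 0.32 and 0.21 on the LPS arrays and -0.79 and -1.003 on the untreated arrays. With median scaling this difference was 0.32 and 0.20 against -0.79 and -1.02, but there the first probe was at -0.30 without a call (adjusted p = 0.205) and the second at -1.47, so both were negative. The brightest Hnrnpdl probe was at -0.12 and the remaining one at -0.48, both without a call. With the slide as a random block both calls were lost (adjusted p = 0.112 and 0.12).

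Hnrnph1 also split. Its 3 bright probes were lower with LPS, by changes of -0.45, -0.49 and -0.59, each past the threshold, while 2 dimmer ones were at 0.15 and 0.04. With median scaling all 5 were lower, the dimmer ones by 0.71 and 0.84. For Hnrnpk a dimmer probe read 7.38 and 7.72 with LPS against 6.85 and 6.93 untreated and was higher by 0.66 (adjusted p = 0.0177 from limma), beside 0.08 for the brightest. That probe was at -0.21 with median scaling and missed the threshold with the slide as a random block (adjusted p = 0.093). The transcript regions that these probes target were not used here, so differing isoforms and differing probe quality cannot be told apart. Another 10 probes of member genes, annotated under other symbols and so outside the members, were tested as well, and 1 was higher (Sf3a3, 0.53, and -0.12 with median scaling) and 1 lower (Hnrnpr, -0.57).

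**Figure D3:**
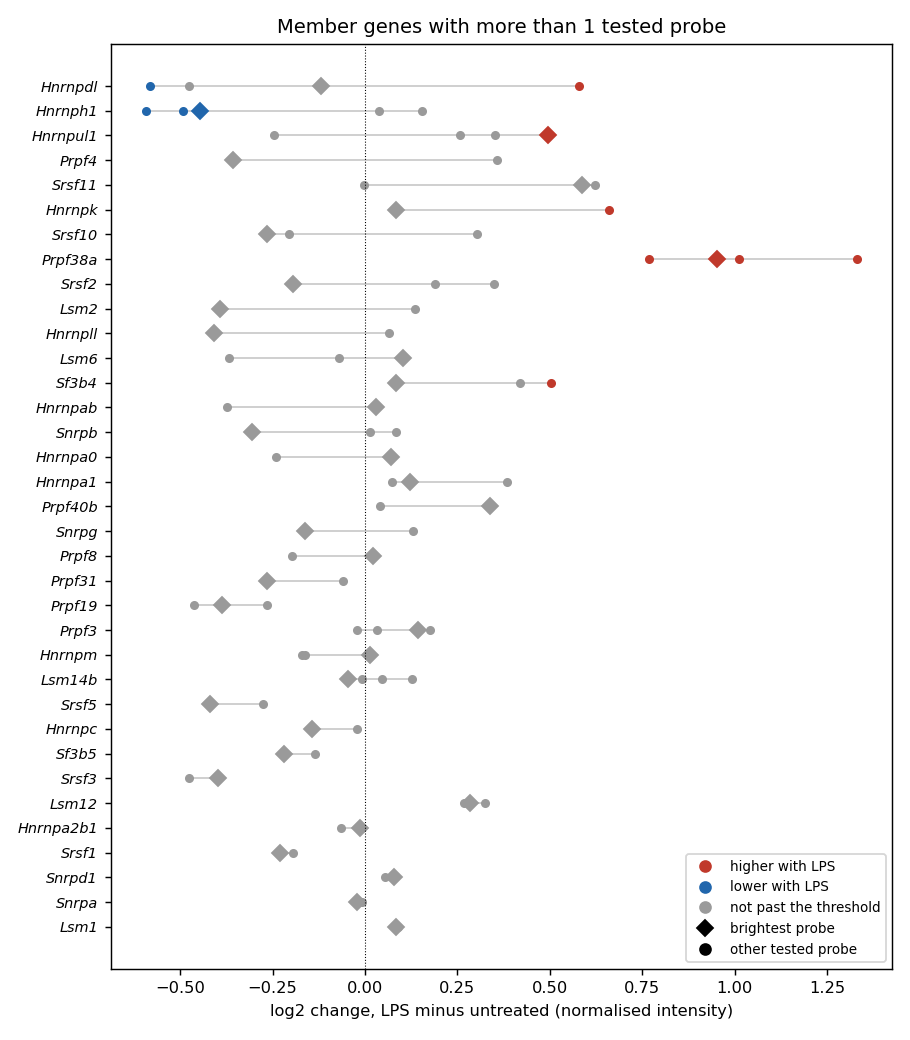
Each row is a member gene with more than 1 tested probe, and each symbol is a probe placed by its log2 change, LPS minus untreated; diamonds are the brightest probe of the gene, and red and blue mark probes past the threshold as higher and lower. The 4 Prpf38a probes lie between 0.77 and 1.33, whereas the Hnrnpdl probes span -0.58 to 0.58.

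Splicing genes outside these families were examined through a list of 130, of which 124 had a probe and 113 were tested. By limma 11 were higher (9.74%) and 19 lower (16.8%), where 13.7% and 21.4% of all genes were. The median change of the list was -0.07, and that of all genes was -0.09. Among the SR-like proteins and SR kinases 5 of 15 were higher (33.3%) and 2 lower (13.3%). Ptbp3, a polypyrimidine tract binding protein of blood cells, read 7.44 and 7.73 with LPS against 6.20 and 6.51 untreated, a rise of 1.23 (adjusted p = 0.00173). Rbm25 rose by 0.90 (adjusted p = 0.00293), Tra2a, an SR-like splicing activator, by 0.72 (adjusted p = 0.0169) and Rbm39, an SR-like coactivator, by 1.10 (adjusted p = 0.0218). These rises sit beside core SR proteins with no call.

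The kinase Srpk2, which phosphorylates SR proteins, read 6.27 and 6.01 with LPS against 7.14 and 7.29 untreated, a change of -1.07 (adjusted p = 0.00188 from limma). The SR kinases Clk1 and Clk3 were at -0.50 and 0.45, each past the threshold, but at -1.39 and -0.43 with median scaling, and both missed it with the slide as a random block (adjusted p = 0.191 and 0.234 from limma). Factors of snRNP assembly also moved both ways, with 2 of 14 higher (14.3%) and 5 lower (35.7%), beside 13.7% and 21.4% of all genes. Gemin4, part of the SMN complex that loads Sm rings onto snRNAs, read 8.16 and 7.96 with LPS against 9.24 and 9.32 untreated, the lowest change of the list at -1.22 (adjusted p = 0.000727). Wdr77, a partner of the methyltransferase that modifies Sm proteins, was lower by 0.69 (adjusted p = 0.00847), and Ddx20, another SMN complex protein, by 0.63 (adjusted p = 0.0093). Tgs1, which methylates the cap of snRNAs, was higher by 0.90 (adjusted p = 0.00385 from limma), and Gemin5, which recognises snRNAs, by 0.57 (adjusted p = 0.035). Gemin5 read 4.86 and 5.24 with LPS against 4.43 and 4.53 untreated and was detected on 0 untreated arrays. It thus entered the test through the LPS arrays alone. With the slide as a random block Gemin5 missed the threshold (adjusted p = 0.152 from limma).

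Among hnRNP-like regulators 1 of 25 was higher (4%), Ptbp3, and 4 were lower (16%), beside 13.7% and 21.4% of all genes. The lower ones were Qk at -0.96, Mbnl1 at -0.73, Sfpq at -0.59 and Rbfox2 at -0.44. The Qk probe is dim, at 4.43 and 4.59 with LPS against 5.46 and 5.47 untreated. It was detected on 0 LPS arrays and so entered the test through the untreated arrays alone. Of 19 proteins of the Prp19 complex and activated spliceosome 1 was higher (5.26%), Bud31, and 5 were lower (26.3%). Those lower included Ppil1 at -0.70, Cdc5l at -0.54, Plrg1 at -0.53 and Crnkl1 at -0.56. The other 13 were not called, among them Bcas2 at 0.006 and Ctnnbl1 at -0.07. Of 16 genes of the exon junction complex and mRNA export only 1 was called (6.25%, all genes 35.2%), Acin1 at 0.66 (-0.13 with median scaling). With the slide as a random block 3 genes of the list stayed higher (Ptbp3, Rbm25, Tgs1) and 3 lower (Gemin4, Srpk2, Qk). Over all genes 7.39% were then higher and 9.07% lower. With median scaling 0 were higher and 86 lower (76.1%), against 4.96% and 62.7% of all genes. There 5 of the 11 higher genes had a negative change (Acin1, Bud31, Clk3, Snu13 and Srrm2). With scaling to the median over the tested probes 19 were higher (16.8%) and 13 lower (11.5%), against 31.5% and 19.3% of all genes. There 1 of the 19 genes lower with quantile normalization, Rbfox2, had a positive change.

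**Figure D4:**
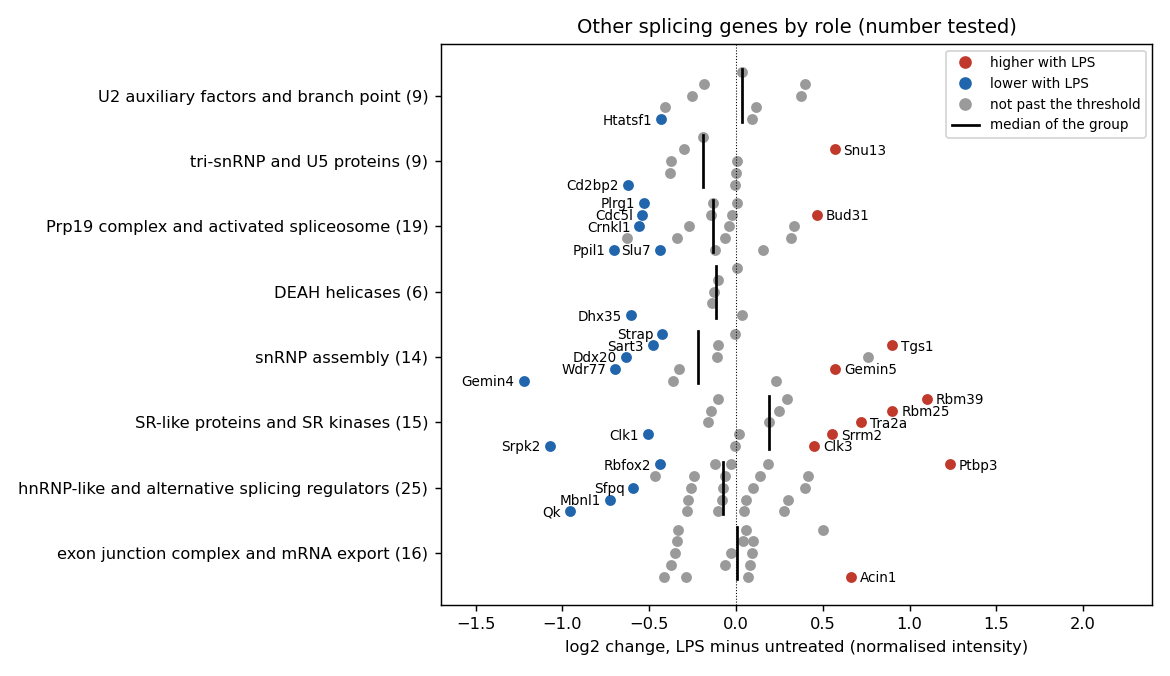
Each point is 1 tested gene of the list of other splicing genes, placed by its log2 change in normalised intensity, LPS minus untreated, and grouped by role with the number tested in brackets; red and blue points passed the threshold as higher and lower, and black bars mark group medians. With quantile normalization called genes lie on both sides of 0 in 5 of the 8 groups, and Ptbp3 at 1.23 and Gemin4 at -1.22 mark the extremes.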

How the data were processed

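Total RNA of RAW G9 cells was hybridised to Illumina MouseWG-6 v2 arrays. The authors extracted probe signals with GenomeStudio 2011.1, and the deposited intensity is linear and not background-subtracted; the deposited detection p-value sets each probe against negative controls on the same array. The deposited log2 table of the whole series, which ranks probes as the signals do, was used as an alternative. Probes were named from the platform annotation (35784 with 1 symbol, 0 with several, 9497 with none), with symbols updated through RefSeq on GRCm38.p6.

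Signals went through neqc of limma 3.58.1 in R 4.3.3 (negative controls inferred from detection p, offset 16, quantile normalization, log2). Probes detected (p under 0.1) on both LPS or both untreated arrays, 17211 in all, were fitted with lmFit and eBayes and adjusted by Benjamini-Hochberg, with a threshold of 0.05. The brightest tested probe, by mean log2 value, stands for a gene. The fit was tested on simulated data. Members, lists and motifs were chosen with earlier results of these data known.

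Named genes were, per subfamily, up to 4 rises and 4 falls past the threshold with no overlap between conditions, members with probes called in opposite directions or detected in 1 condition, and members alone in a role; in the other list, up to 6 of each. Other genes are named beside counts, after their values were seen. Alternatives covered background correction, scaling, detection filter, probe choice, slide, replicate block and leaving out each array. The number of arrays limits the precision. The p-values rest on the spread between 2 arrays per condition, moderated by eBayes toward the spread over all tested probes.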

Additional observations from a re-analysis of the deposited data

How the results depend on the processing

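The main counts were 3 members higher and 2 lower, and 11 and 19 of the other splicing genes. Median scaling gave 0 and 47 members and 0 and 86 others (all genes 4.96% and 62.7%), and scaling to the median over tested probes 10 members higher and 19 others higher (all genes 31.5%). Lower members numbered 8 with no background correction, with an offset of 50 and with the deposited log2 table (12.1%, against 20.4%, 21.7% and 20.1% of all genes), the added ones in all 3 being Hnrnpll, Lsm2, Prpf4, Srsf5 and Srsf9. The mean of a gene's probes gave 1 lower member, and no detection filter gave 8 lower among the other genes. The replicate block gave 5 members higher and 2 lower, adding Srsf11 and Scaf11 (all genes 15.5% and 23.9%); letters A and B are only names here (correlation of same-letter deviations 0.145). The slide as a random block, with a correlation of 0.736 pooled over probes, left 2 members higher and 0 lower (3 and 0 at an unadjusted p under 0.05) and 3 and 3 others (all genes 7.39% and 9.07%). It was chosen after seeing the data because duplicateCorrelation gave no estimate from 4 arrays, and it assumes equal spread in both conditions. Leaving out 1 array gave 1 to 10 members higher, 0 to 14 lower, and 2 to 17 and 3 to 30 others. By array, the higher and lower members were 4 and 9 without LPS array A, 10 and 14 without LPS array B, 1 and 0 without untreated array A and 2 and 0 without untreated array B (by limma, 2 and 1 at an unadjusted p under 0.05 in both), where a lone array is assumed to vary like the other condition. In the same order all genes gave 22.1% and 27.8%, 20.1% and 28.4%, 6.40% and 7.40%, and 6.23% and 6.57%. Of the genes chosen by the naming rule, the sign turned with median scaling for Hnrnpul1 (-0.056) and Acin1 (-0.13), and with scaling to the median over tested probes for Prpf39 (0.44) and Hnrnph2 (0.49), both then called higher. Leaving out 1 array gave Hnrnph2 changes of -0.35 to 0.14, positive without LPS array B (0.14) and without untreated array A (0.00028), with no call in any. Of other called genes named beside counts, Clk3 (-0.43), Bud31 (-0.18), Snu13 (-0.28) and Srrm2 (-0.32) turned with median scaling. With scaling to the median over tested probes Rbfox2 turned (0.041). Members without a call turned with median scaling as well, among them Scaf11 (-0.43) and Clasrp (-0.49). The cause of these shifts was not tested. Prpf38a passed in every setting run but median scaling.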
